A study of Mus musculus with 10 samples.

Results

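The genes described here are 10 genes of the urea cycle and of glutamine metabolism (Cps1, Otc, Ass1, Asl, Arg1, Nags, Slc25a15, Glul, Gls2 and Oat), listed by name as members of these pathways, of 38922 genes in the tables. The list was drawn up with earlier results of these data known. All 10 passed the filter on low counts and were among the 13719 genes tested. Livers came from wild-type males of the inbred strain C57BL/6N, aged 6 weeks. CD95-Ab, an antibody that activates the death receptor CD95 (Fas), was injected intraperitoneally at 0.5 µg/g in 5 mice, and an equal volume of saline was injected in 5 control mice. All livers were taken after 6 h, and each mouse gave its own RNA-seq library of bulk tissue. Levels are given as CPM, counts per 1000000 of the adjusted total of a mouse, and replicates are listed in the order of their numbers.

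The urea cycle turns toxic ammonia into urea, and in mammals it runs in full only in hepatocytes, starting in the mitochondria and ending in the cytosol. Its enzymes are most abundant in hepatocytes around the portal vein, together with Gls2, the liver-type glutaminase that releases ammonia from glutamine next to the cycle. A narrow ring of hepatocytes around the central vein holds glutamine synthetase (Glul) and ornithine aminotransferase (Oat), and there ammonia that escaped the cycle is bound into glutamine.

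After injection of CD95-Ab, hepatic Glul rose 2.59-fold, while 7 of the 10 genes fell (Ass1, Gls2, Arg1, Slc25a15, Asl, Otc and Nags). Cps1 and Oat did not pass the test. Without CD95-Ab replicate 1, or without CD95-Ab replicate 2, 4 genes were lower in place of 7. A call means a Benjamini-Hochberg adjusted p of 0.05 or less over all tested genes in edgeR's quasi-likelihood test. Such calls were common in these livers, with 25.4% of all tested genes higher and 22.0% lower. The median log2 fold change was -0.69 over the 10 genes and 0.01 over all tested genes. All mice of one group lay above all mice of the other for 4 of the 10 genes, 1 higher and 3 lower after CD95-Ab, against 18.6% and 14.7% of all tested genes.

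**Figure D1:**
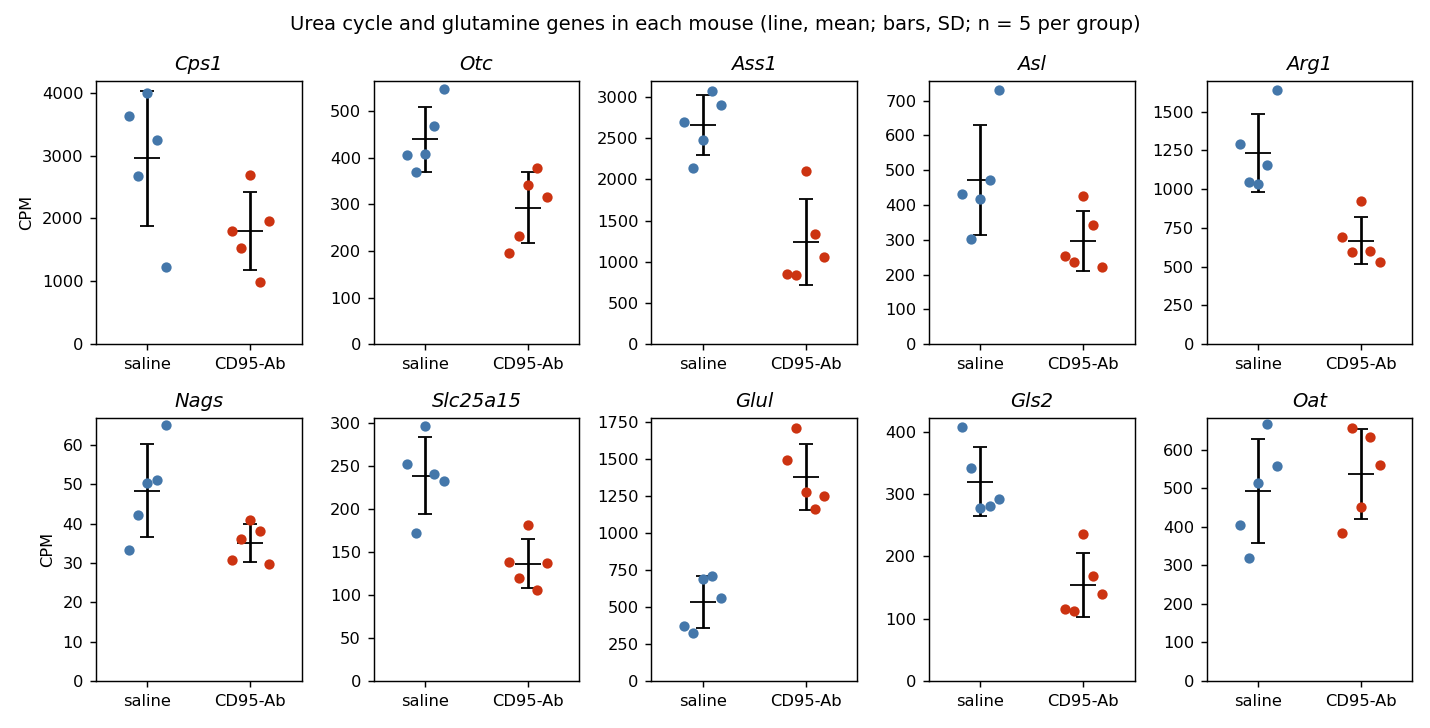
CPM of the 10 genes (y axes, linear, each from 0) in saline-injected mice and mice injected with CD95-Ab (x axes); each dot is 1 mouse, the line is the mean and the bars are the SD over 5 mice. The groups are apart for Ass1, Arg1, Gls2 and Glul, and Glul is the gene whose 5 CD95-Ab mice are all above the saline mice.

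The first step inside the mitochondria joins ammonia and bicarbonate to carbamoyl phosphate and is catalysed by Cps1 (ENSMUSG00000025991, GRCm38 chr1:67123026-67231259, plus strand). Cps1 was at 3627, 2680.3, 3991, 3249 and 1233 CPM in saline-injected mice, and at 1805, 1532, 2691, 991 and 1967 CPM after CD95-Ab. Saline replicate 5 lay below 4 of the 5 CD95-Ab mice, so the groups overlapped. The log2 fold change was -0.72 ± 0.33 (SE, n = 5 per group, edgeR adjusted p = 0.0885). Without saline replicate 5 it was -0.92 (adjusted p = 0.0126), and without CD95-Ab replicate 3 it was -0.90 (adjusted p = 0.0430). In the other 8 fits that left out 1 mouse it stayed uncalled, between -0.76 and -0.58 (adjusted p 0.104 to 0.185), and it was weakest without CD95-Ab replicate 4.

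That saline mouse stood apart in another measure. Relative to the mean of its own group, its longest 10% of transcripts differed from its shortest 10% by -0.50 (difference of median log2 values). In CD95-Ab replicate 4, taken from the CD95-Ab mean, the difference was -0.70. In the other 8 mice it lay between -0.05 and 0.39. Cps1 has the longest transcript of the 10 genes, with an effective length of 5500 bases against 1420 to 3395 in the rest. The difference between the groups also ran with length, with a median log2 fold change of -0.09 in the shortest 10% and 0.19 in the longest 10%. A fit added after seeing the data removed from each mouse its trend with length, there taken from the mean over all mice. It therefore also removed the part of the group difference that runs with length, which cannot be told apart from an effect of CD95-Ab. In it, Cps1 had a log2 fold change of -0.87 and passed the test (edgeR adjusted p = 0.0230). With both mice left out, also added after seeing the data, it was -0.77 (adjusted p = 0.0128). Both fits lost the calls of Asl (-0.58 and -0.53, adjusted p = 0.0550 and 0.0750) and Nags (-0.40 and -0.37, adjusted p = 0.0557 and 0.0695), so that 6 of the 10 genes were lower in each.

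Nags (ENSMUSG00000048217, GRCm38 chr11:102145513-102149477, plus strand) makes N-acetylglutamate, the activator that Cps1 requires. It was at 33.4, 42.1, 50.2, 51.1 and 65.2 CPM in saline-injected controls and at 30.9, 36.1, 40.9, 38.1 and 29.7 CPM after CD95-Ab. The groups overlapped, and 4 of the 5 saline mice were above every CD95-Ab mouse. Nags fell by 0.46 on the log2 scale (SE 0.17, adjusted p = 0.0423), and this call was lost in 10 of 22 alternative fits.

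Otc (ENSMUSG00000031173, GRCm38 chrX:10252305-10321024, plus strand) couples carbamoyl phosphate to ornithine to form citrulline. It was at 407, 369, 407, 468 and 547 CPM in saline-injected controls and at 195, 233, 343, 377 and 315 CPM after CD95-Ab. The groups met at a single pair of mice, since CD95-Ab replicate 4 was just above saline replicate 2. Otc fell by 0.59 on the log2 scale (SE 0.19, adjusted p = 0.0261). It no longer passed without CD95-Ab replicate 1 (adjusted p = 0.0518) or without CD95-Ab replicate 2 (adjusted p = 0.0689).

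Slc25a15 (ENSMUSG00000031482, GRCm38 chr8:22375551-22398597, minus strand) carries ornithine into the mitochondria and citrulline out. It was at 252, 172, 296, 240.4 and 232 CPM in saline-injected controls and at 139, 120.1, 181, 106 and 137 CPM after CD95-Ab. Again 1 mouse of each group crossed, saline replicate 2 and CD95-Ab replicate 3. The carrier was 1.75-fold lower after CD95-Ab (log2 fold change -0.81 ± 0.18 SE, adjusted p = 0.00281), and the call held in each of 22 alternative fits.

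In the cytosol, Ass1 (ENSMUSG00000076441, GRCm38 chr2:31470207-31520672, plus strand) joins citrulline and aspartate. It was at 2691, 2139.8, 2474, 3074 and 2896 CPM in saline-injected controls and at 854, 842, 2105, 1343 and 1063 CPM after CD95-Ab. The groups did not overlap, although CD95-Ab replicate 3 came close to the lowest saline mouse. Ass1 was 2.14-fold lower (log2 fold change -1.10 ± 0.26 SE, adjusted p = 0.00425). Its decrease was the largest of the 10 genes in this fit and in 19 of 22 alternative fits, and that of Gls2 was larger in the other 3, without saline replicate 4, without saline replicate 5 and with both mice of the length trend left out.

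Asl (ENSMUSG00000025533, GRCm38 chr5:130011258-130029247, minus strand) splits argininosuccinate into arginine and fumarate. It was at 433, 303, 417, 471 and 730.5 CPM in saline-injected controls and at 255, 237, 425, 341 and 222 CPM after CD95-Ab. The groups overlapped, with saline replicates 2 and 3 inside the CD95-Ab range. Asl fell by 0.67 on the log2 scale (SE 0.25, adjusted p = 0.0426), a call lost in 11 of 22 alternative fits. Among them was the fit without saline replicate 5, its highest mouse (log2 fold change -0.46, adjusted p = 0.0907).

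Arg1 (ENSMUSG00000019987, GRCm38 chr10:24915221-24927484, minus strand) closes the cycle by releasing urea from arginine. It was at 1292, 1044, 1035, 1157 and 1641 CPM in saline-injected controls and at 688, 597, 925, 602 and 529 CPM after CD95-Ab. The groups did not overlap. Arg1 was 1.85-fold lower (log2 fold change -0.88 ± 0.19 SE, adjusted p = 0.00285). Summed over Cps1, Otc, Ass1, Asl and Arg1, the cycle enzymes took 7756 ± 899 CPM in controls and 4295 ± 1249 CPM in CD95-Ab mice (mean ± SD, n = 5 each), and the sums did not overlap. The gap was narrow, with CD95-Ab replicate 3 at 6489 CPM and saline replicate 2 at 6537 CPM.

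Glul (ENSMUSG00000026473, GRCm38 chr1:153899944-153909723, plus strand), which makes glutamine from glutamate and ammonia, moved the other way. It was at 371, 327, 689.7, 711 and 560.4 CPM in saline-injected controls and at 1497, 1712, 1278, 1160.4 and 1249 CPM after CD95-Ab. The lowest CD95-Ab mouse was well above the highest saline mouse. The log2 fold change was 1.37 ± 0.24 (SE, adjusted p = 0.000588), and over 22 alternative fits it stayed between 1.24 and 1.48 and past the threshold.

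Gls2 (ENSMUSG00000044005, GRCm38 chr10:128194457-128210004, plus strand) catalyses the opposite reaction, from glutamine to glutamate and ammonia. It was at 408, 342, 278, 282 and 292 CPM in saline-injected controls and at 115, 112, 237, 168 and 139 CPM after CD95-Ab. The groups did not overlap, and Gls2 was 2.08-fold lower (log2 fold change -1.05 ± 0.21 SE, adjusted p = 0.00177). It shares 97 exon bases with Spryd4 on the opposite strand, whose counts came to 7.36% of those of Gls2, and reads of the pair cannot be told apart where counting ignores strand.

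Oat (ENSMUSG00000030934, GRCm38 chr7:132557478-132576398, minus strand) links ornithine to glutamate and proline. It was at 406, 319, 514, 666 and 559 CPM in saline-injected controls and at 385, 656, 453, 634 and 561 CPM after CD95-Ab. The ranges coincided almost entirely, and the difference was smaller than the spread between mice (log2 fold change 0.13 ± 0.22 SE, adjusted p = 0.658).

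**Figure D2:**
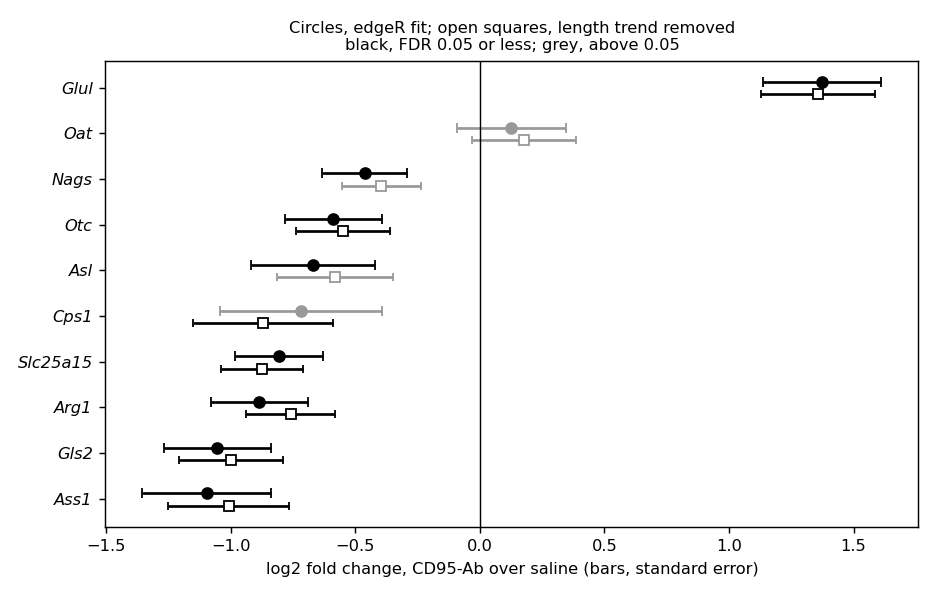
Log2 fold change of each gene, CD95-Ab over saline (x axis), with its standard error as bars; circles are the edgeR fit and open squares the fit with the length trend removed, black at an adjusted p of 0.05 or less and grey above. Cps1 turns from grey to black between the fits (-0.72 and -0.87), Asl and Nags from black to grey, and Glul at 1.37 is the positive value past the threshold.

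The decrease was uneven among the mice. CD95-Ab replicate 3 had the highest level of its group for 7 of the 8 genes with a negative fold change, and Otc was the exception. By the root-mean-square difference of log2 CPM over the 10 mice, each taken from the saline mean, Ass1 and Gls2 were the most alike pair (0.242) and Ass1 and Glul the least (1.92). The measure includes the difference between the groups. Here and for the nearest genes below, it therefore largely follows the fold change.

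**Figure D3:**
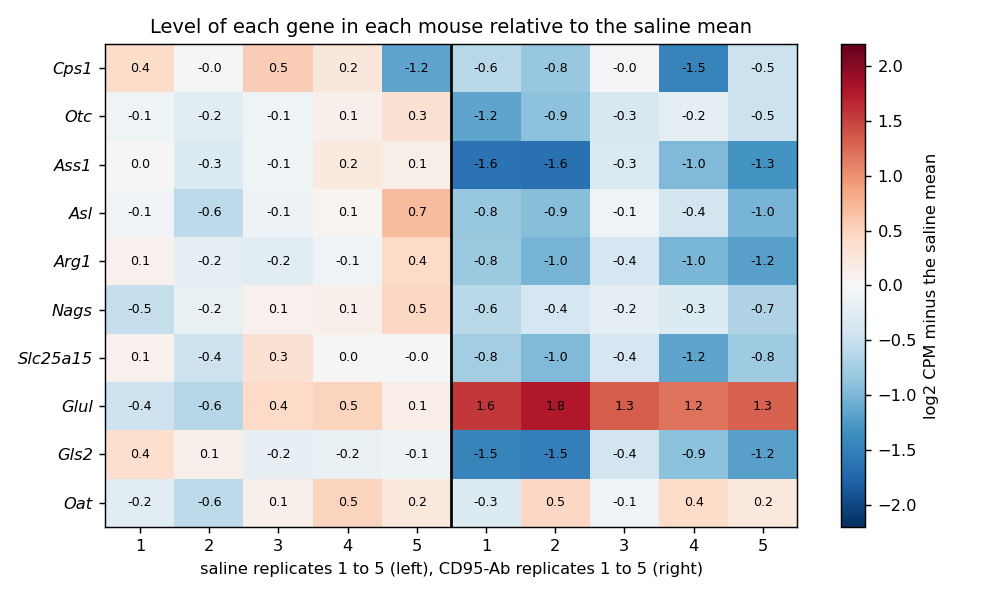
Log2 CPM minus the saline mean (colour and printed value) for the 10 genes (rows) in the 10 mice (columns, saline on the left of the line). The column of CD95-Ab replicate 3 is paler than its neighbours for Ass1 and Gls2, the row of Glul is positive in every CD95-Ab mouse, and saline replicate 5 is negative for Cps1.

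Levels of different genes were compared per transcript length, as FPKM. In saline-injected mice Ass1 was highest at 1674 ± 184 FPKM (mean ± SD), followed by Arg1 at 888 ± 120.0 and Cps1 at 567 ± 226. Nags was lowest at 26.8 ± 4.0, below Slc25a15 at 72.4 ± 14.4. Neighbours from Cps1 down to Gls2 (Cps1, Asl, Oat, Glul, Otc, Gls2) overlapped in their ranges, whereas Ass1, Arg1, Slc25a15 and Nags were each apart from their neighbours. Between Arg1 and Cps1 the gap was narrow, with the lowest Arg1 value at 756.1 FPKM and the highest Cps1 value at 752.5 FPKM. After CD95-Ab, Glul moved from rank 6 to rank 2, at 503 ± 119 FPKM, behind Ass1 at 723 ± 248, and its range overlapped those of Ass1 above it and of Arg1 below it. The ratio of Gls2 to Glul within a mouse was 0.99 ± 0.47 in saline-injected mice and 0.17 ± 0.08 after CD95-Ab. The ratios did not overlap, which follows from the separate ranges of Gls2 and of Glul and is no further observation.

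Among all tested genes, those with a profile most like that of Ass1 included Cth (cystathionine gamma-lyase) and Spc25, at root-mean-square differences of 0.210 and 0.222. For Gls2 they were Agxt, Uroc1 and Uox, at 0.132, 0.181 and 0.184. For Otc they were Gstk1, Pecr and Hibadh (0.0989 to 0.105), for Arg1 Vps9d1, 9430038I01Rik and Cbr1 (0.146 to 0.181), and for Slc25a15 Rab43, Rmnd5a and Slc19a1 (0.163 to 0.170). Those nearest to Asl were Khk, Srrd and Gstm6 (0.115 to 0.177), to Nags Dhodh, Malsu1 and Lsm2 (0.115 to 0.128), and to Oat 1700037H04Rik, Cox18 and Hspbap1 (0.151 to 0.197). Cps1 was nearest to Dyrk2, Ctsf and F13b (0.172 to 0.199). Glul was nearest to Msrb3, Taf4b and Kctd17, at 0.199, 0.241 and 0.251.

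Promoter sequence is shown for the gene that rose (Glul), for one of those that fell most (Ass1) and for one of low GC content (Otc). The stretches lie before the annotated starts on the plus strand, at chr1:153899679-153899928, chr2:31470020-31470206 and chrX:10252055-10252304 (RefSeq, GRCm38.p6). The stretches of Glul and Otc are 250 bases long, and that of Ass1 is 187 bases long because it stops at the annotated start of the gene. Capitals mark matches to the motifs named below them.
Glul: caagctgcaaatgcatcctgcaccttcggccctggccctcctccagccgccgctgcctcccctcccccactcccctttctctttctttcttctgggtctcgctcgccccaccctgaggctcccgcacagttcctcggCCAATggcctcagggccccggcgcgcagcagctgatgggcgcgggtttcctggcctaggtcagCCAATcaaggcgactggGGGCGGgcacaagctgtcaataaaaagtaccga
Ass1: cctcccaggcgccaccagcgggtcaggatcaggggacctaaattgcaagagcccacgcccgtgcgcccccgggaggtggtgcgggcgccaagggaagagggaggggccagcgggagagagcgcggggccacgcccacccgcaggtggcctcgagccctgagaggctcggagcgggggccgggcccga
Otc: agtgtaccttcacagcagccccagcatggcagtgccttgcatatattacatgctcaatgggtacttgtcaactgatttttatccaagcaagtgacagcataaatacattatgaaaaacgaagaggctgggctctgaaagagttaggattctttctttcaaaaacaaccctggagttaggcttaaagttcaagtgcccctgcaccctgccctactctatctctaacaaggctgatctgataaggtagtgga

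RefSeq windows were matched for 6 of the 10 genes (Glul, Ass1, Otc, Oat, Nags and Slc25a15, the last with 2 windows). A first search of windows of 300 bases, on both strands, covered 5 motifs of liver and core promoter factors, of which 4 are given here. Of the 7 windows, none held TTGCNNAA (C/EBP, in 10.8% of 32851 promoters), TATAAA (13.6%) or CAAAGT (part of the HNF4 site, 14.4%), and 1, of Nags, held CTTTGA (TCF, 16.0%). CCAAT and GGGCGG were added only after the sequences had been read, so their matches are no independent observation. In the 250 bases before the start, CCAAT was found for Glul and Oat (33.8% of promoters) and GGGCGG for Ass1, Glul, Nags and Slc25a15 (32.7%). The match of Ass1 does not lie within its printed stretch. The 250 bases were 64.8% GC for Glul, 75.6% for Ass1 and 43.6% for Otc, against a median of 52.4% over all promoters.

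Around the 10 genes, 51 genes of 5 lists were tested, and 15 were higher and 23 lower after CD95-Ab. Their median log2 fold change was -0.24. Over all tested genes, 25.4% were higher and 22.0% lower, and these shares are the background for the counts of each list below. Of 8 accessory genes of the cycle, 2 were higher and 4 lower (median -0.46). Car5a, the mitochondrial carbonic anhydrase that supplies bicarbonate to Cps1, fell from 34.5 ± 5.69 to 8.93 ± 1.45 CPM (log2 fold change -1.95 ± 0.15, adjusted p = 2.21e-06). Aqp9, a channel for glycerol and urea, fell by 1.13 on the log2 scale (adjusted p = 0.000148).

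Genes with a shared or related activity were also set side by side, in pairs chosen with their values known. Arg1 was at 756 to 1026 FPKM in saline-injected mice and 359 to 581 FPKM after CD95-Ab, whereas Arg2, the mitochondrial arginase, was at 0.05 to 0.31 and 0.85 to 1.25 FPKM. Arg2 shares 285 exon bases with Vti1b on the opposite strand, which had 9638 counts over all mice against 289 for Arg2, so its values are uncertain. In other pairs of the lists, Got1 and Got2 both fell (by 1.41 and 0.74 on the log2 scale), and Gpt fell by 0.98 while Gpt2 had a log2 fold change of -0.74 that did not pass (adjusted p = 0.0583). The aspartate and glutamate carrier Slc25a13 fell by 0.91, and Slc25a12 had a log2 fold change of -0.02 (adjusted p = 0.948).

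Among transporters of cationic amino acids, Slc7a2, the form that liver uses for arginine and ornithine, fell from 86.1 ± 32.0 to 31.3 ± 16.0 FPKM, and Slc7a1 rose from 0.13 ± 0.06 to 1.93 ± 0.57 FPKM. Their log2 fold changes of CPM were -1.40 ± 0.34 (adjusted p = 0.00515) and 4.01 ± 0.31 (adjusted p = 2.11e-06). Of 12 tested genes of amino acid transport, 6 were higher and 4 lower (median 0.55). The glutamine transporter Slc38a3 fell by 0.76 and Slc38a4 by 1.35 on the log2 scale, and Slc25a22, a mitochondrial glutamate carrier, fell by 1.13. Slc38a1, Slc1a5, Slc7a5, Slc7a6 and Slc7a7 rose by log2 fold changes of 2.37, 1.98, 1.43, 3.39 and 1.80.

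**Figure D4:**
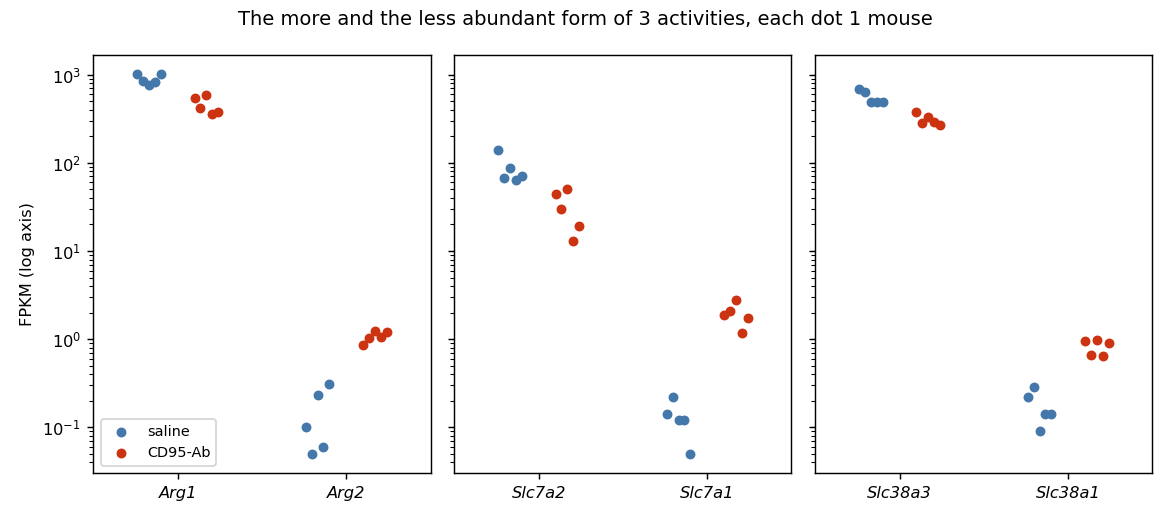
FPKM (y axis, log scale) of 3 pairs of genes with a shared or related activity, Arg1 and Arg2, Slc7a2 and Slc7a1, and Slc38a3 and Slc38a1 (x axes). The pairs were chosen with their values known. Each dot is 1 mouse, blue for saline and red for CD95-Ab. In each pair the left gene is lower and the right gene higher in CD95-Ab mice with no overlap, and the left gene stays the more abundant one. The values of Arg2 are uncertain, since it shares exon bases with Vti1b on the opposite strand.

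Of 11 tested genes of glutamate and proline metabolism, 2 were higher and 6 lower (median -0.72). Glud1, glutamate dehydrogenase, fell by 0.55 and Got1, the cytosolic aspartate aminotransferase, by 1.41 on the log2 scale, and Aldh18a1, which starts proline and ornithine synthesis from glutamate, rose by a log2 fold change of 1.48. Of 8 genes that use arginine or its products, 4 were higher and 3 lower (median 0.40). Odc1, which turns ornithine into putrescine, rose from 49.6 ± 20.4 to 197 ± 93.3 CPM (log2 fold change 1.99), and Gamt, of creatine synthesis, fell by 1.35. Nos2, the inducible nitric oxide synthase, was at 0 to 0.07 CPM in saline-injected mice, where 3 counts are worth 0.06 to 0.12 CPM, and at 1.37 to 11.5 CPM after CD95-Ab. Nos3 had a log2 fold change of 1.26 (adjusted p = 0.0412), which failed the threshold in 9 of 22 alternative fits.

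Of 12 regulators of these pathways, 1 was higher and 6 lower (median -0.45). Cebpa, a transcription factor of mature hepatocytes, fell from 233 ± 21.1 to 75.5 ± 15.3 CPM (log2 fold change -1.63, adjusted p = 7.81e-06), and Cebpb, its relative of the acute phase, rose by a log2 fold change of 1.27 (adjusted p = 0.00537). Klf15, a regulator of amino acid breakdown, fell by 2.18, Ppargc1a by 1.52 and Sirt3 by 1.43 on the log2 scale. Hnf4a had a log2 fold change of -0.34 and did not pass the test (adjusted p = 0.157).

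Glul was higher after CD95-Ab, whereas of 10 tested pericentral markers, 0 were higher and 5 lower by edgeR (median -0.57), among them Tbx3 (-1.91), Rnf43 (-1.61) and Axin2 (-1.37, lost in 3 of 21 alternative fits). Lgr5 had a log2 fold change of 0.87, and was the 1 pericentral marker higher at an unadjusted p under 0.05 and by DESeq2. Of 8 periportal markers, 1 was higher and 3 lower (median -0.63), among them Etnppl (-2.07) and Hal (-1.16).

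**Figure D5:**
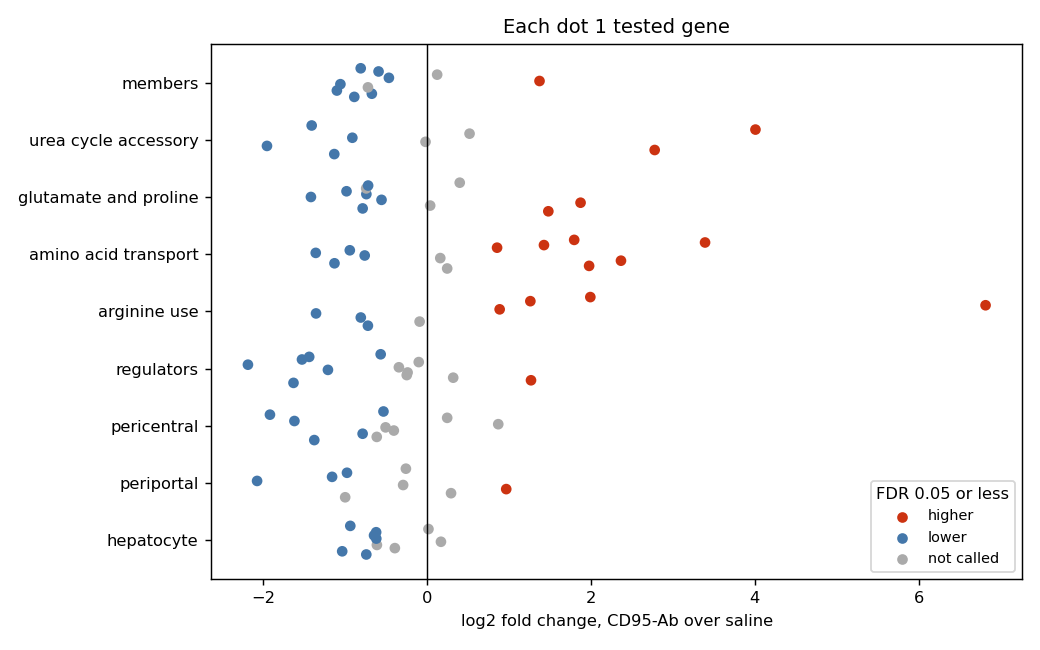
Log2 fold change, CD95-Ab over saline (x axis), of each tested gene (dot) of the 10 urea cycle and glutamine genes (members), of the 5 pathway lists and of the pericentral, periportal and hepatocyte markers (rows); red is higher, blue lower and grey not called. Transport and arginine use hold genes on both sides of 0, and the hepatocyte and pericentral rows hold no red dot.

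Totals ranged from 25965699 to 62097636 counts per mouse. Hepatocyte markers were abundant in every mouse, as the liver label calls for, with summed levels of 125578 to 149152 CPM in controls and 64119.9 to 104681 CPM after CD95-Ab, and 6 of 10 lower. Alb, which encodes albumin, fell by 1.03 on the log2 scale (adjusted p = 0.00529). Relative to Alb in the same mouse, the difference between groups on the log2 scale was 2.50 for Glul and 0.63 for Nags, both higher after CD95-Ab with no overlap. It was 1.21 for Oat, 0.45 for Otc, 0.41 for Asl, 0.39 for Cps1, 0.26 for Slc25a15, 0.18 for Arg1, -0.03 for Gls2 and -0.10 for Ass1, with overlapping groups. In bulk tissue, fewer hepatocytes and less RNA per hepatocyte cannot be told apart. Among markers of other cells, 5 of 5 tested neutrophil, 5 of 6 endothelial and 4 of 6 stellate genes were higher. The same held for 3 of 4 cholangiocyte, 6 of 6 lymphocyte and 5 of 5 erythrocyte genes. Of all tested genes, 25.4% were higher. Of 6 macrophage genes, 2 were higher and 4 were not called. Summed erythrocyte genes were at 135 to 323 CPM in controls and at 1064 to 33995 CPM after CD95-Ab. The non-polyadenylated RNA Rn7sk was at 0.39 ± 0.24 and 742 ± 354 CPM, and Rpph1, the other tested gene of that list, was also higher. The part of these differences in the values of the 10 genes was not tested.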

How the data were processed

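Liver RNA of 10 mice was analysed, 5 saline and 5 CD95-Ab, grouped by their labels, which call them biological replicates. The authors assigned paired reads with RSEM 1.2.19. The expected counts deposited by the authors are whole numbers without normalization, and the FPKM values deposited by the authors are scaled for length and total. The methods name a human Gencode release, whereas the identifiers in the tables are mouse Ensembl ones. The genome build and mouse release are not given in the sources used here. Reads shared between genes were divided by RSEM. GENCODE mouse release 21 (GRCm38) gave symbols and positions, and RefSeq gave promoters.

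The 10 genes, the lists and the tests were chosen with earlier results of these data known. Genes were kept by filterByExpr (minimum count 10), scaled by TMM and compared in edgeR 4.0.16 (R 4.3.3), whose quasi-likelihood F test had a single term, group, and Benjamini-Hochberg adjustment. The code was tested on simulated data. Tables were made with Python 3.11.15. Totals ranged from 25965699 to 62097636, and 3 counts are worth 0.0556 to 0.121 CPM. This floor covers counting error only. Same-numbered mice correlated between -0.274 and 0.257 in their deviations, with 2 of 5 pairs above 0.1, so numbers were not taken as pairs.

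Named genes were the 10 genes, list genes past the threshold with a log2 fold change of at least 1 in size, Arg2, Glud1, Slc38a3 and Alb, and the 3 genes nearest to each of the 10 in profile. Some genes and 1 motif that these rules cover are not reported here. Spryd4, Vti1b, Got2, Gpt, Gpt2, Slc25a12, Slc25a13, Hnf4a, Lgr5, Rn7sk and Rpph1 were named after their values were seen. Of 56 genes on the 5 pathway lists, 55 were matched, and Rhbg was not analysed here. Motifs were searched in 2 rounds: 5 motifs over 300 bases, then, once the sequences had been read, 2 further motifs and windows of 250 bases. Alternatives were DESeq2 1.42.0, limma 3.58.1 on FPKM, the likelihood ratio test, other scalings, filters and thresholds, a replicate block and each mouse left out. The length trend and the fit without 2 mice were added after seeing the data.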

Additional observations from a re-analysis of the deposited data

Results flagged for a closer look

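In groups of 5 mice, a value was singled out when its gap to the next mouse exceeded 0.71 of the range of the group. This held for 7 of 86 groups tested, and chance gives about 1 in 20 for independent groups of normally distributed values. CPM were used without a log scale and the groups share the same mice, so that rate is only a rough guide. CD95-Ab replicate 3 was the highest of its group for Got1 (168 CPM), Slc7a6 (6.41 CPM), Nos2 (11.5 CPM) and Odc1 (359 CPM). Saline replicate 5 was the highest for Slc25a22 (292 CPM). CD95-Ab replicate 1 was the highest for Klf15 (37.8 CPM), and CD95-Ab replicate 5 for Rnf43 (8.37 CPM). None of the 10 urea cycle and glutamine genes was among these. The cause was not tested.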

How the results depend on the processing

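Over 43 named genes (the nearest genes in profile not included) and up to 22 alternative fits each, 901 of 942 fold changes kept their direction and their side of the threshold, 35 lost the call, 5 (all of Cps1) gained it and 1 reversed. The reversal was Oat without saline replicate 2 (-0.0016 on the log2 scale, against 0.13), and leaving out 1 mouse gave -0.0016 to 0.23 for Oat. Of the 10 genes, 7 were lower, and leaving out 1 mouse gave 4 to 8. The count was 4 without CD95-Ab replicate 1 and without CD95-Ab replicate 2, and 8 with DESeq2. At an adjusted p of 0.01 it was 4. At a log2 fold change of 2 or more in size it was 0 lower and 0 higher by edgeR and by DESeq2, since the largest value in any fit was 1.48, whereas at an unadjusted p under 0.05 8 were lower and 1 higher. With that fold threshold, 5 pathway list genes were higher and 1 lower, in place of 15 and 23. With the replicate number as a block, 5 of the 10 genes were lower and 1 higher (Asl and Nags lost the call), the pathway lists gave 15 higher and 22 lower, and Cps1 had a log2 fold change of -0.69. The numbers do not pair the mice by their deviations. Depth did not limit the 10 genes, whose lowest level was 29.7 CPM, but Nos2, Arg2 and Slc7a6 lay near the value of 3 counts in saline-injected mice.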
